A study of Mus musculus with 12 samples.

Results

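The 36 genes described here were interferon response genes together with Tnfsf10, chosen by symbol in the arrays' own annotation, out of 23793 genes that could be tested. They fell into 25 targets mainly of type I interferon, 9 gamma-type targets (guanylate-binding proteins, immunity-related GTPases and the antigen processing genes Tap1, Psmb8 and Psmb9), and Irf1 and Tnfsf10, which were kept outside both classes. Their RNA was measured in sorted LSK cells, which lack lineage markers, carry Sca-1 and Kit on their surface, and include hematopoietic stem cells and early progenitors. The cells were sorted after enrichment for Kit and came from male DBA2/J mice, whose age was not given. LSK cells were taken from peripheral blood after G-CSF (granulocyte colony-stimulating factor; 5 days, 9 injections), after AMD3100 (plerixafor, a CXCR4 antagonist; 1 hour) or after CWHM-823+tGro-b (a VLA-4 inhibitor with a truncated CXCR2 agonist; no time given), and from the bone marrow of mice given PBS. Each of the 4 groups had 3 arrays. No blood of mice given PBS was on the arrays, so a difference from marrow joins the treatment with the tissue, and the durations of the mobilizing treatments differed.

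Type I interferons are secreted by cells that sense viral or microbial nucleic acids. Type I interferons signal through JAK1 and TYK2 to a complex with STAT2 and IRF9 that binds the interferon-stimulated response element (ISRE), whereas interferon gamma signals through JAK1 and JAK2 and acts at the gamma-activated site (GAS) and through the factor IRF1. In hematopoietic stem cells interferons are known to drive dormant cells into cycle. Tnfsf10 encodes TRAIL, a death ligand of the TNF family that interferons are known to induce.

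A level below is the log2 processed signal over the array's own 75th percentile, so 0 is the 75th percentile of that array and levels of different genes are not compared. That percentile was an intensity of 1146 to 2724, and 70.8 to 83.4% of probes were above background. The arrays lay on 3 slides, each with 1 array of every group, and the slide carried the replicate number. Group differences were tested with limma over all 12 arrays and adjusted by Benjamini-Hochberg over the 23793 genes. A gene with an adjusted p under 0.05 is said to pass. Errors of differences are standard errors of the fit without the slide as a block, also where an adjusted p with the block stands beside them. Whether different mice gave the 3 arrays of a group is not stated in the labels, and p-values therefore measure the spread between these samples, which may be technical. Kit and Ly6a (which encodes Sca-1) were above background on all 12 arrays. Kit had levels of 3.05 to 3.64, but Ly6a, itself an interferon-inducible gene, had levels of 0.61 to 0.81 on the G-CSF arrays and -1.38 to -0.25 on all others. Ly6a was higher after G-CSF than after AMD3100 (1.61 ± 0.33, adjusted p = 0.0105) and than in marrow (1.65 ± 0.33, adjusted p = 0.0308). The part of this sort marker in the members' differences was not tested. Also above background on all 12 arrays were Cd3e, Cd4 and Itgam, which encode antigens of mature lineages. Marrow array 3 stood apart: the summed linear signal of 9 neutrophil markers, each relative to the array's 75th percentile, was 32.2 on it, against 2.03 to 4.35 on the other arrays.

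Of the 36 members, 33 could be tested and 30 of these were above background on all 12 arrays. Stat2 and Parp14 were above background on 2 of 3 AMD3100 arrays and Ifit1 on 2 of 3 marrow arrays. Ifit2, Mx1 and Gbp6 were not well above background on 3 arrays of any group and were not tested. Mx1 was above background on 0 G-CSF, 0 AMD3100, 1 CWHM-823+tGro-b and 2 marrow arrays. Ifit2 was above it on 1 G-CSF, 0 AMD3100, 1 CWHM-823+tGro-b and 2 marrow arrays, and Gbp6 on 1 G-CSF, 2 AMD3100, 2 CWHM-823+tGro-b and 2 marrow arrays.

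**Figure D1:**
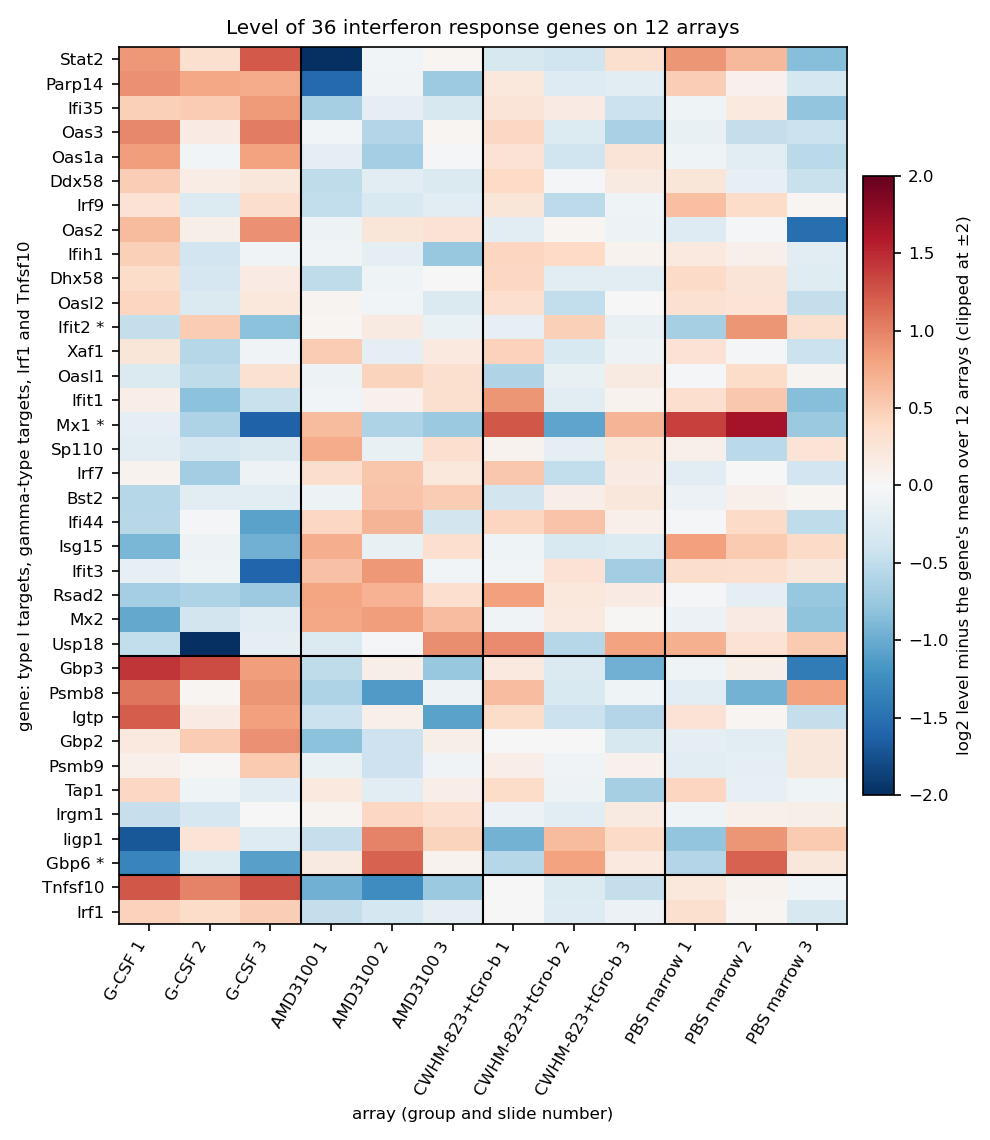
Level of each of the 36 genes (rows) on each of the 12 arrays (columns), as the log2 level minus the gene's own mean over the 12 arrays; an asterisk marks the 3 genes that were not tested. Tnfsf10, Gbp3 and Parp14 were above their means on all 3 G-CSF arrays, and Rsad2 and Mx2 were below theirs on those arrays.

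Promoters of both classes held the ISRE core. RefSeq promoter sequence (GRCm38.p6) was at hand for 28 of the 36 members, and the 250 bases before the gene start were searched on both strands for the ISRE core GAAANNGAAA and the GAS core TTCNNNGAA. The ISRE core was found in 8 of 19 type I and 4 of 7 gamma-type promoters, against 936 of 27025 promoters of all genes (3.46%). The GAS core was found in 3 of 19 type I promoters, 2 of 7 gamma-type promoters and that of Irf1, against 8.13% of all promoters. The Tnfsf10 promoter held neither. A match of these letters is not a shown binding site. The 60-base windows below are those of members that passed between G-CSF and AMD3100 blood and held a match, first the 2 that were lower after G-CSF and then the 4 that were higher. They lie at chr12:26456538-26456597 (minus strand, Rsad2), chr4:156200850-156200909 (minus, Isg15), chr3:142620579-142620638 (plus, Gbp2), chr3:142559980-142560039 (plus, Gbp3), chr11:58199496-58199555 (plus, Igtp) and chr11:53769898-53769957 (plus, Irf1). Capitals mark matches to either core on either strand, with overlapping matches run together; the capitals in Irf1 and the first run in Igtp are the GAS core.
Rsad2: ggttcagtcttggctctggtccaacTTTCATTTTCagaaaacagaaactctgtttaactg
Isg15: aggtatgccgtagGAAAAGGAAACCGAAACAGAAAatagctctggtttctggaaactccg
Gbp2: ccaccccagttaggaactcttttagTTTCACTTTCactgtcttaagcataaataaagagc
Gbp3: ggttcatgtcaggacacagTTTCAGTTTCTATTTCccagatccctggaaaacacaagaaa
Igtp: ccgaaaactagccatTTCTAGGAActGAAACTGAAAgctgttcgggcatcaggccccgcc
Irf1: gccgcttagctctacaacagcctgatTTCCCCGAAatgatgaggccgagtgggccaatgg

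Tnfsf10 was the member with the widest spread of group means, 2.15 log2 units. Its levels (probe at chr3:27238508-27238567, plus strand, mm9) were 0.49, 0.24 and 0.51 after G-CSF, -1.71, -2.00 and -1.50 after AMD3100, -0.76, -1.03 and -1.24 after CWHM-823+tGro-b, and -0.54, -0.69 and -0.81 in marrow. The G-CSF arrays were above those of the other groups and the AMD3100 arrays below them, with no overlap; the lowest marrow array and the highest CWHM-823+tGro-b array overlapped. Tnfsf10 rose after G-CSF against marrow (1.10 ± 0.23, adjusted p = 0.0349, 2.14-fold) and fell after AMD3100 against marrow (-1.05 ± 0.23, adjusted p = 0.0477). Between mobilized groups it was higher after G-CSF than after AMD3100 (2.15 ± 0.23, adjusted p = 0.000788, 4.43-fold) and higher after G-CSF than after CWHM-823+tGro-b (1.42 ± 0.23, adjusted p = 0.0137). The difference between CWHM-823+tGro-b and marrow was -0.33 ± 0.23 (adjusted p = 1.00), and that between CWHM-823+tGro-b and AMD3100 was 0.72 ± 0.23 (adjusted p = 0.160, 0.0342 with the slide as a block). In bulk samples more RNA per cell and more cells of a kind that expresses a gene cannot be told apart.

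The call for Tnfsf10 between G-CSF and AMD3100 held under every alternative setting and without any single array, but its calls against marrow did not. Against marrow, the rise after G-CSF did not pass without G-CSF array 1 or 3, AMD3100 array 1, CWHM-823+tGro-b array 2 or any marrow array (adjusted p = 0.0521 to 0.147), and the fall after AMD3100 did not pass without any 1 of the 12 arrays (adjusted p = 0.0524 to 0.198). The rise after G-CSF also did not pass under quantile normalization (0.0632) or in the authors' values (0.0722), nor the fall after AMD3100 with normexp background correction (0.107) or with no filter on dim probes (0.0672).

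The receptor of TRAIL in the mouse, Tnfrsf10b, was also higher after G-CSF than after AMD3100. Its levels were -0.45, -0.39 and -0.14 after G-CSF, -1.57, -2.67 and -1.90 after AMD3100, -1.01, -1.24 and -1.11 after CWHM-823+tGro-b, and -0.73, -0.87 and -0.82 in marrow. It differed by 1.72 ± 0.27 between G-CSF and AMD3100 (adjusted p = 0.00520), with no overlap, and stood -1.24 ± 0.27 after AMD3100 against marrow, which did not pass (adjusted p = 0.0505; 0.0134 with the slide as a block). The 5 tested partners of Tnfsf10 were its receptor, the adaptor Fadd, Casp8, the inhibitor Cflar and the related ligand Tnfsf14. Of these, 2 were higher and 0 lower after G-CSF than after AMD3100, against 12.6% higher and 18.4% lower of all genes tested. The 2 were Tnfrsf10b and Tnfsf14 (0.83 ± 0.25, adjusted p = 0.0316).

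**Figure D2:**
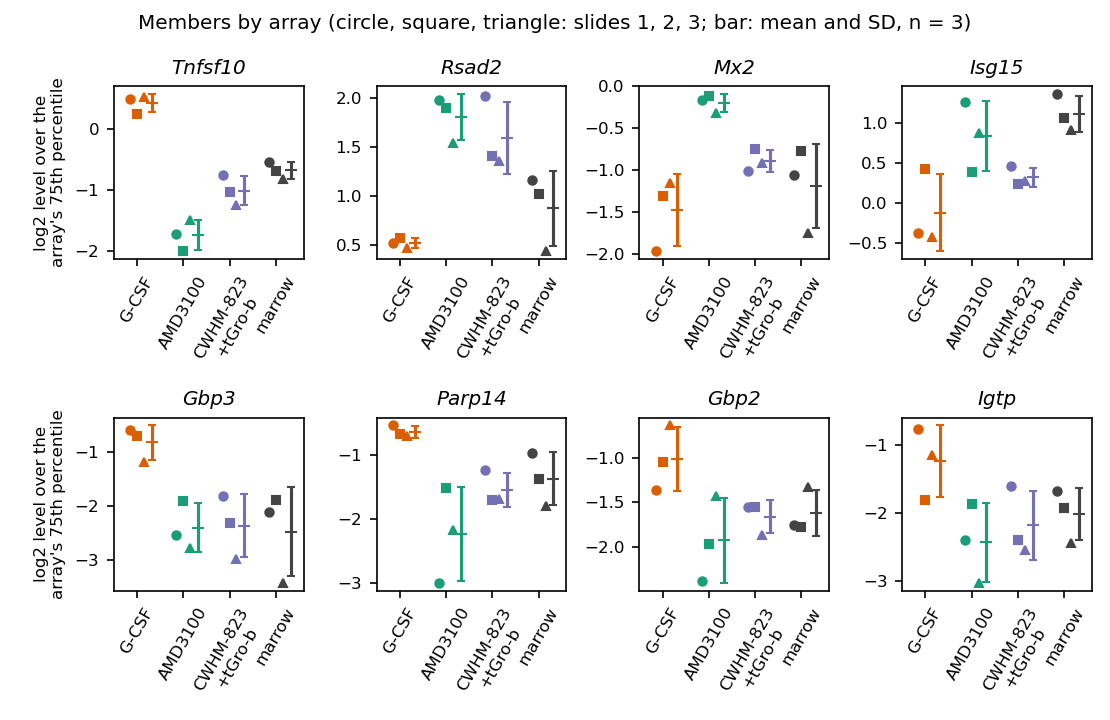
Level of 8 members on each array, as log2 signal relative to that array's 75th percentile, with G-CSF, AMD3100, CWHM-823+tGro-b and marrow from left to right; symbols are the 3 slides and bars the mean and SD of 3 arrays. The G-CSF arrays of Tnfsf10 (0.24 to 0.51) lay above all other arrays, and those of Rsad2 (0.48 to 0.58) lay below all blood arrays of the other groups.

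Between G-CSF and AMD3100 blood, 7 members were higher after G-CSF (Tnfsf10, Parp14, Gbp3, Igtp, Ifi35, Gbp2 and Irf1) and 3 were lower (Mx2, Rsad2 and Isg15), so 10 of 33 tested members passed, against 31.1% of all genes tested (12.6% higher and 18.4% lower). The share of members that passed was close to that background. The median difference of all genes was -0.37 log2 units in this comparison, and it was -0.10 after quantile normalization between arrays, which turned the all-gene split of 3008 higher and 4382 lower into 3321 higher and 2603 lower. Once slide was included as a block, 22 members passed, 12 higher and 10 lower, against 62.6% of all genes (23.1% higher and 39.6% lower). The G-CSF arrays lay wholly above the AMD3100 arrays for 12 members, against 19.8% of all genes, and wholly below them for 7, against 27.8%.

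Summed markers of some other cell types differed between G-CSF and AMD3100 blood, and those of others overlapped. The sums given here are of linear signal relative to the array's 75th percentile, not of log2 levels. The sum of 8 markers of plasmacytoid dendritic cells, a cell type that makes much type I interferon, was 28.8 to 39.9 on the G-CSF arrays and 47.9 to 62.5 on the AMD3100 arrays, with 35.1 to 64.7 after CWHM-823+tGro-b and 36.2 to 44.0 in marrow. Of these, 7 were above background on all 12 arrays and Spib on 1, and Siglech alone gave 66.2 to 83.0% of the sum. The sum of 8 conventional dendritic cell markers was 5.36 to 7.48 after G-CSF and 14.7 to 24.6 after AMD3100, with 14.5 to 23.0 after CWHM-823+tGro-b and 16.0 to 17.6 in marrow; 4 were above background on all 12 arrays and Xcr1 on 0. The sum of 7 B cell markers was 20.4 to 44.0 after G-CSF and 43.7 to 66.8 after AMD3100, with 27.0 to 43.1 after CWHM-823+tGro-b and 27.5 to 48.6 in marrow, and Cd22 alone gave 72.2 to 91.5% of it. That of 6 erythroid markers was 7.37 to 7.73 after G-CSF, 2.05 to 2.80 after AMD3100, 9.70 to 17.0 after CWHM-823+tGro-b and 1.90 to 2.95 in marrow. The erythroid sum followed Hba-a1, which gave up to 90.9% of it and was higher after G-CSF than after AMD3100 (2.71 ± 0.34, adjusted p = 0.00224). The other erythroid markers were divided. Differences of the opposite sign were -1.34 ± 0.49 for Klf1 (adjusted p = 0.0560), -0.91 ± 0.34 for Slc4a1 (adjusted p = 0.0587) and -0.27 ± 0.30 for Epor (adjusted p = 0.463). Alas2 and Hbb-b1 went the same way as Hba-a1. Mean levels after G-CSF and AMD3100 were -2.80 and -3.33 for Alas2 (above background on 3 and 1 arrays). For Hbb-b1 they were -4.03 and -4.38 (2 and 0 arrays). The sum of 6 monocyte and macrophage markers was 25.1 to 27.9 after G-CSF and 30.8 to 32.8 after AMD3100. Csf1r alone gave 83.8 to 92.1% of it. Between these 2 groups the B cell, neutrophil, T cell and NK cell sums overlapped. The median difference of all genes between G-CSF and AMD3100 was -0.37 log2 units, and no sum was corrected for it. The part of these cell types in the members' differences was not tested.

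Among the type I targets lower after G-CSF was Rsad2, which encodes viperin, an antiviral enzyme that makes a chain-terminating nucleotide. Its levels (probe at chr12:27127859-27127918, minus strand, mm9) were 0.52, 0.58 and 0.48 after G-CSF, 1.99, 1.90 and 1.54 after AMD3100, 2.02, 1.41 and 1.37 after CWHM-823+tGro-b, and 1.16, 1.03 and 0.44 in marrow. The G-CSF arrays were below all AMD3100 and CWHM-823+tGro-b arrays, while the marrow arrays spanned the G-CSF range. Rsad2 was lower after G-CSF than after AMD3100 (-1.28 ± 0.27, adjusted p = 0.0108). Mx2, a dynamin-like antiviral GTPase, had levels (probe at chr16:97782327-97782386, plus strand, mm9) of -1.97, -1.31 and -1.15 after G-CSF, -0.16, -0.11 and -0.32 after AMD3100, -1.02, -0.75 and -0.91 after CWHM-823+tGro-b, and -1.06, -0.77 and -1.75 in marrow, and its AMD3100 arrays were above those of all other groups. Its difference between G-CSF and AMD3100 was -1.28 ± 0.29 (adjusted p = 0.0139).

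Isg15, a ubiquitin-like modifier, had levels (probe at chr4:155573649-155573708, minus strand, mm9) of -0.37, 0.43 and -0.43 after G-CSF, 1.26, 0.38 and 0.87 after AMD3100, 0.46, 0.24 and 0.27 after CWHM-823+tGro-b, and 1.36, 1.06 and 0.91 in marrow. It was lower after G-CSF than after AMD3100 (-0.96 ± 0.30, adjusted p = 0.0342), although G-CSF array 2 lay above AMD3100 array 2. The Isg15 probe shared a stretch of 20 bases with 1 probe of another gene (Gm9706), so its signal may not be that of Isg15 alone.

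A further 5 type I targets were lower after G-CSF than after AMD3100 with the slide as a block and did not pass without it. Usp18, which removes ISG15 from proteins and restrains the type I receptor, had levels of -1.87, -4.01 and -1.56 after G-CSF, -1.66, -1.40 and -0.44 after AMD3100, -0.42, -1.95 and -0.56 after CWHM-823+tGro-b, and -0.67, -1.08 and -0.86 in marrow; G-CSF array 2 was far below the others. Ifit3, of the family that binds viral RNA, had levels of -1.62, -1.55 and -3.04 after G-CSF, -0.86, -0.59 and -1.51 after AMD3100, -1.52, -1.17 and -2.16 after CWHM-823+tGro-b, and -1.11, -1.13 and -1.23 in marrow, with no overlap between G-CSF and AMD3100. Ifi44, an interferon-induced protein, had levels of -1.98, -1.43 and -2.49 after G-CSF, -1.00, -0.74 and -1.79 after AMD3100, -0.99, -0.84 and -1.32 after CWHM-823+tGro-b, and -1.45, -1.03 and -1.93 in marrow. On each slide the G-CSF array of Ifi44 was below the AMD3100 array, although the groups overlapped.

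Bst2 (tetherin), which holds budding virus at the cell surface and is also a marker of plasmacytoid dendritic cells, had levels of -1.35, -1.00 and -0.99 after G-CSF, -0.88, -0.21 and -0.27 after AMD3100, -1.15, -0.65 and -0.56 after CWHM-823+tGro-b, and -0.90, -0.69 and -0.75 in marrow. The G-CSF arrays of Bst2 were below the AMD3100 arrays. Sp110, a nuclear body protein, had levels of 7.33, 7.20 and 7.25 after G-CSF, 8.28, 7.40 and 7.88 after AMD3100, 7.61, 7.34 and 7.75 after CWHM-823+tGro-b, and 7.65, 6.99 and 7.81 in marrow. The differences between G-CSF and AMD3100 were -1.31 for Usp18, -1.08 for Ifit3, -0.79 for Ifi44, -0.66 for Bst2 and -0.59 for Sp110, with adjusted p of 0.0608 (Ifit3) to 0.119 (Sp110) without the block and 0.00422 (Ifi44) to 0.0284 (Usp18) with it. The sign of Sp110 turned under quantile normalization (0.20), and its probe shared 20-base stretches with 52 probes of other genes. The other Sp110 probes, which shared none, stood -0.37 ± 0.24 and 0.45 ± 0.25 (adjusted p = 0.0371 and 0.0515 with the block), so the direction of Sp110 is uncertain.

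Other type I targets were higher after G-CSF. Parp14, a mono-ADP-ribosyltransferase, had levels (probe at chr16:35832992-35833051, minus strand, mm9) of -0.53, -0.67 and -0.70 after G-CSF, -3.00, -1.52 and -2.18 after AMD3100, -1.24, -1.71 and -1.68 after CWHM-823+tGro-b, and -0.96, -1.36 and -1.79 in marrow, with no overlap between the G-CSF arrays and those of any other group. It was higher after G-CSF than after AMD3100 (1.60 ± 0.35, adjusted p = 0.0123), with 1 AMD3100 array not above background. Ifi35, an interferon-induced leucine zipper protein, had levels (probe at chr11:101319011-101319070, plus strand, mm9) of -1.10, -1.06 and -0.71 after G-CSF, -2.23, -1.75 and -1.88 after AMD3100, -1.30, -1.40 and -1.99 after CWHM-823+tGro-b, and -1.65, -1.37 and -2.36 in marrow, again with the G-CSF arrays above all others. Its difference between G-CSF and AMD3100 was 1.00 ± 0.30 (adjusted p = 0.0314).

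Stat2, the subunit through which type I signals reach the ISRE, had the second largest spread of group means, with levels of -1.25, -1.80 and -0.89 after G-CSF, -4.78, -2.17 and -2.07 after AMD3100, -2.43, -2.50 and -1.80 after CWHM-823+tGro-b, and -1.23, -1.46 and -2.96 in marrow. AMD3100 array 1 was far below the rest, and the difference between G-CSF and AMD3100 of 1.70 ± 0.66 did not pass (adjusted p = 0.0668; 0.0619 with the block). Oas1a and Oas3 encode synthetases of the oligoadenylates that activate RNase L. Oas1a had levels of 0.84, -0.05 and 0.80 after G-CSF, -0.20, -0.68 and -0.03 after AMD3100, 0.28, -0.40 and 0.25 after CWHM-823+tGro-b, and -0.09, -0.22 and -0.54 in marrow. Oas3 had levels of 1.78, 0.97 and 1.84 after G-CSF, 0.76, 0.22 and 0.85 after AMD3100, 1.22, 0.54 and 0.17 after CWHM-823+tGro-b, and 0.66, 0.34 and 0.38 in marrow. Both passed against AMD3100 with the block only (0.83, adjusted p = 0.0111; 0.92, adjusted p = 0.0128), although the second Oas1a probe stood 0.23 ± 0.29 (adjusted p = 0.485 with the block). So did Ddx58, the RNA sensor RIG-I, which had levels of 0.59, 0.24 and 0.33 after G-CSF, -0.42, -0.14 and -0.20 after AMD3100, 0.50, 0.06 and 0.27 after CWHM-823+tGro-b, and 0.34, -0.06 and -0.35 in marrow and differed by 0.64 (adjusted p = 0.0197).

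The other 9 tested type I targets did not pass between G-CSF and AMD3100 with or without the block. They were the regulators Irf7 and Irf9, the sensors Ifih1 (MDA5) and Dhx58 (LGP2), the synthetase Oas2, the related Oasl1 and Oasl2, Ifit1 and the apoptosis factor Xaf1, with differences from -0.62 for Irf7 to 0.46 for Irf9. The sign of Ifit1 (-0.50) turned under quantile normalization, and the second Xaf1 probe (0.62 ± 0.30) went against the first (-0.30 ± 0.32).

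Of the gamma-type targets, 3 of 8 tested were higher after G-CSF than after AMD3100 and 0 were lower, against 12.6% and 18.4% of all genes. With the slide as a block 5 were higher and 2 lower, against 23.1% and 39.6% of all genes. Gbp3, a guanylate-binding protein of the kind that attacks pathogen vacuoles, had levels (probe at chr3:142236032-142236091, plus strand, mm9) of -0.59, -0.71 and -1.19 after G-CSF, -2.53, -1.91 and -2.78 after AMD3100, -1.82, -2.31 and -2.98 after CWHM-823+tGro-b, and -2.11, -1.90 and -3.42 in marrow. All G-CSF arrays were above all other arrays, and the difference from AMD3100 was 1.58 ± 0.43 (adjusted p = 0.0222). Gbp2, of the same family, had levels (probe at chr3:142300719-142300778, plus strand, mm9) of -1.36, -1.05 and -0.64 after G-CSF, -2.39, -1.97 and -1.44 after AMD3100, -1.56, -1.56 and -1.87 after CWHM-823+tGro-b, and -1.75, -1.79 and -1.33 in marrow and differed by 0.91 ± 0.29 (adjusted p = 0.0370), with the 2 groups not overlapping. Igtp (Irgm3), an immunity-related GTPase, had levels (probe at chr11:58020927-58020986, plus strand, mm9) of -0.75, -1.80 and -1.15 after G-CSF, -2.40, -1.87 and -3.03 after AMD3100, -1.60, -2.40 and -2.55 after CWHM-823+tGro-b, and -1.68, -1.93 and -2.44 in marrow and differed by 1.20 ± 0.39 (adjusted p = 0.0379). Its highest AMD3100 array was just below its lowest G-CSF array.

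Psmb8 and Psmb9, catalytic subunits of the immunoproteasome, passed with the block only. Psmb8 had levels of 1.90, 0.88 and 1.72 after G-CSF, 0.23, -0.30 and 0.74 after AMD3100, 1.45, 0.53 and 0.75 after CWHM-823+tGro-b, and 0.62, -0.11 and 1.64 in marrow and differed by 1.28 ± 0.46 (adjusted p = 0.0520; 0.00705 with the block). Psmb9 had levels of 1.18, 1.10 and 1.60 after G-CSF, 0.93, 0.66 and 1.00 after AMD3100, 1.20, 1.01 and 1.15 after CWHM-823+tGro-b, and 0.84, 0.88 and 1.29 in marrow and differed by 0.43 ± 0.23 (adjusted p = 0.157; 0.0372 with the block). For both, the G-CSF arrays were above the AMD3100 arrays. Tap1, the peptide transporter that loads MHC class I, differed by 0.01 ± 0.31.

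Not every gamma-type target stood higher. Irgm1, an immunity-related GTPase known to guard stem cells of the mouse against interferon signals, had levels of 0.35, 0.47 and 0.82 after G-CSF, 0.87, 1.23 and 1.14 after AMD3100, 0.69, 0.58 and 0.99 after CWHM-823+tGro-b, and 0.74, 0.91 and 0.93 in marrow, with the G-CSF arrays below the AMD3100 arrays (-0.53 ± 0.23, adjusted p = 0.0832; 0.0160 with the block). The second Irgm1 probe, above background on all 12 arrays, stood 0.06 ± 0.26 (adjusted p = 0.854; 0.770 with the block) and does not show this difference. Iigp1, an immunity-related GTPase that attacks pathogen vacuoles, had levels of 0.90, 2.86 and 2.33 after G-CSF, 2.14, 3.59 and 3.04 after AMD3100, 1.64, 3.23 and 2.98 after CWHM-823+tGro-b, and 1.81, 3.48 and 3.12 in marrow. The array of slide 1 was the lowest of its group in all 4 groups. Within every slide the G-CSF array was the lower of the pair, and the difference from AMD3100 (-0.89 ± 0.62) passed only with the block (adjusted p = 0.00276).

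Irf1, the factor that both interferon pathways induce, had levels (probe at chr11:53590746-53590805, plus strand, mm9) of 2.35, 2.26 and 2.39 after G-CSF, 1.41, 1.53 and 1.71 after AMD3100, 1.89, 1.64 and 1.78 after CWHM-823+tGro-b, and 2.21, 1.93 and 1.57 in marrow. The G-CSF arrays were above all others, and Irf1 was higher after G-CSF than after AMD3100 (0.78 ± 0.23, adjusted p = 0.0273). The second Irf1 probe (chr11:53591817-53591876, plus strand, mm9) went the other way. It stood -0.69 ± 0.30 between G-CSF and AMD3100 (adjusted p = 0.0938), and it passed there with the slide as a block (adjusted p = 0.0403). Between G-CSF and marrow it stood -1.02 ± 0.30 (adjusted p = 0.115 without the block). The direction of Irf1 is therefore uncertain.

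**Figure D3:**
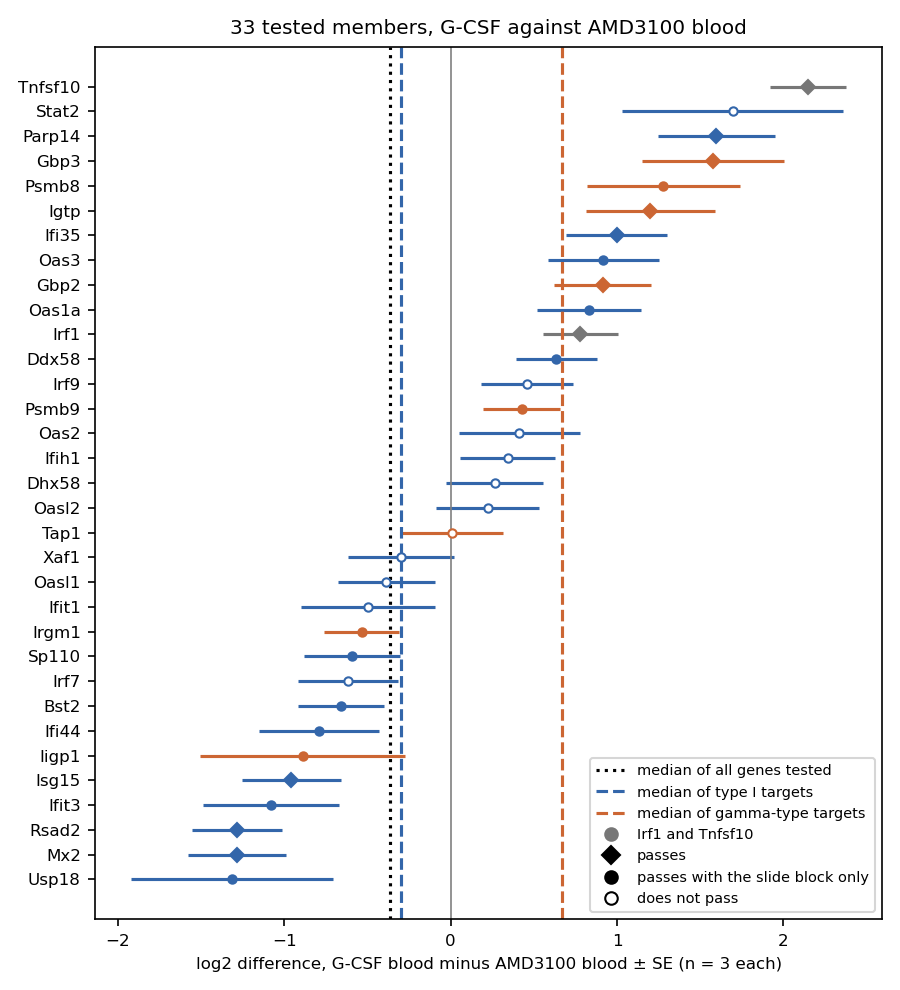
Log2 difference between G-CSF and AMD3100 blood for the 33 tested members, with standard errors (3 arrays each), type I targets in blue, gamma-type targets in orange and Irf1 and Tnfsf10 in grey. The dotted line is the median of all genes tested (-0.37) and the dashed lines are the medians of the classes (-0.30 for type I and 0.67 for gamma-type targets).

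Taken as classes, the type I targets had a median difference between G-CSF and AMD3100 of -0.30 (2 higher and 3 lower of 23 tested) and the gamma-type targets one of 0.67 (3 higher and 0 lower of 8). Of all genes tested, 12.6% were higher and 18.4% lower. Relative to the median of all genes the class medians were 0.07 and 1.04. After quantile normalization the medians were 0.10 and 0.76, so the sign of the type I median depends on the scaling, while the order of the classes was the same. The type I median minus the gamma-type median was -0.97 over the group means. Within slides, where the median is over genes of 1 pair of arrays, it was -0.45, -0.51 and -0.71 (SD 0.14, n = 3 slides). Both classes were themselves divided. Tested type I members ran from -1.31 for Usp18 to 1.70 for Stat2, and gamma-type members from -0.89 for Iigp1 to 1.58 for Gbp3.

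The same difference between the classes was less even in other comparisons with G-CSF. Against marrow it was -0.52, at -0.41, -0.62 and 0.16 on the 3 slides (SD 0.41), and against CWHM-823+tGro-b it was -0.53, at -0.16, -0.36 and -0.69 (SD 0.27). For AMD3100 against marrow it was 0.17 (SD 0.32), for CWHM-823+tGro-b against marrow 0.15 (SD 0.33), and for CWHM-823+tGro-b against AMD3100 -0.10 (SD 0.09). These comparisons share arrays and are not independent of each other. Leaving out the 2 proteasome subunits, which lie beside Tap1 in the MHC region, the difference between G-CSF and AMD3100 was -0.76.

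Without G-CSF array 1 only Tnfsf10 and Rsad2 passed between G-CSF and AMD3100, and 15 members passed without G-CSF array 2. The counts were 5 without G-CSF array 3 and 4 without AMD3100 array 1. Mx2 and Parp14 did not pass without G-CSF array 1 (adjusted p = 0.0617 and 0.0509). Gbp3 did not pass without G-CSF array 1 or AMD3100 array 1 or 3 (adjusted p = 0.0508 to 0.0828). Gbp2 (0.0635 to 0.131), Irf1 (0.0735 to 0.0866) and Ifi35 (0.0609 to 0.104) did not pass without G-CSF array 1 or 3 or AMD3100 array 1 or 2. Igtp (0.0512 to 0.142) and Isg15 (0.0609 to 0.122) did not pass without G-CSF array 1 or 3 or AMD3100 array 1 or 3, nor Igtp without marrow array 2. Irf1 also did not pass under quantile normalization (0.0725), in the authors' values (0.0731) or as the mean of its probes (0.887), and Gbp2 (0.0572) and Igtp (0.0674) did not pass with normexp background correction.

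Against marrow, G-CSF blood had 1 member that passed, Tnfsf10, of 33 tested, against 1.74% of all genes tested. With the slide as a block 8 members passed, against 19.5% of all genes (8.24% higher and 11.3% lower). Gbp3 (1.65 ± 0.43, adjusted p = 0.00795), Oas3 (1.07 ± 0.33, 0.0270), Oas1a (0.81 ± 0.31, 0.0383) and Tnfsf10 were higher after G-CSF. Usp18 (-1.61 ± 0.61, 0.0388), Isg15 (-1.24 ± 0.30, 0.0239), Ifit3 (-0.91 ± 0.41, 0.0394) and Iigp1 (-0.77 ± 0.62, 0.0193) were lower. Here, as elsewhere, the errors are those of the fit without the block. Without the block the adjusted p of these members other than Tnfsf10 ran from 0.0634 for Isg15 to 0.454 for Iigp1. The G-CSF arrays lay wholly above the marrow arrays for 8 members (Tnfsf10, Gbp3, Irf1, Oas1a, Oas2, Oas3, Ifi35 and Parp14), against 11.7% of all genes, and wholly below them for 4 (Isg15, Usp18, Ifit3 and Bst2), against 13.7% of all genes.

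Among members that did not pass, Oas2 stood 1.16 ± 0.36 after G-CSF against marrow, with marrow array 3 at a level of -2.36 and the other marrow arrays at -1.09 and -0.89. The regulators Irf7 and Irf9 stood -0.03 ± 0.30 and -0.21 ± 0.28, and the sensors Ifih1 and Dhx58 stood -0.02 ± 0.28 and -0.07 ± 0.29. The median difference of the type I class was -0.07 and that of the gamma-type class 0.45, against -0.25 for all genes.

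**Figure D4:**
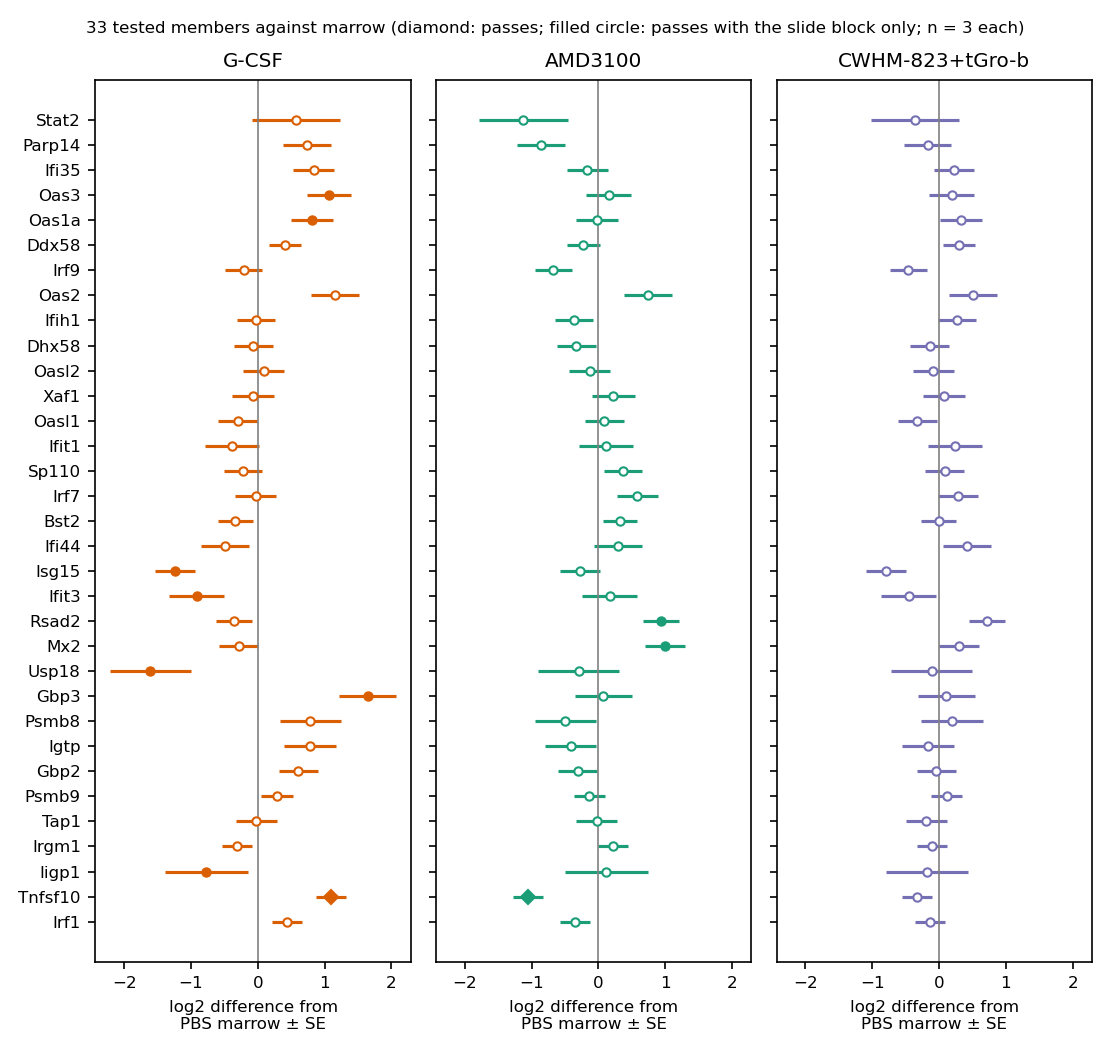
Log2 difference from marrow, with standard errors (3 arrays each), of the 33 tested members after G-CSF, AMD3100 and CWHM-823+tGro-b, from left to right. Tnfsf10 passed after G-CSF (1.10) and after AMD3100 (-1.05), in opposite directions, and no member passed after CWHM-823+tGro-b.

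After AMD3100, 1 of 33 members passed against marrow, Tnfsf10, against 1.42% of all genes tested. With the slide as a block Mx2 (1.00 ± 0.29, adjusted p = 0.0385; 0.112 without the block) and Rsad2 (0.93 ± 0.27, adjusted p = 0.0189; 0.106) also passed, both higher, for a count of 3 against 13.5% of all genes. The AMD3100 arrays lay wholly above the marrow arrays for 3 members (Mx2, Rsad2 and Irf7), against 14.6% of all genes, and wholly below them for 2 (Tnfsf10 and Irf9), against 11.9%. Class medians were 0.09 for type I and -0.08 for gamma-type targets, against 0.11 for all genes.

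After CWHM-823+tGro-b, limma called 0 of 33 members against marrow, with or without the block, against 0.37% of all genes without it and 1.08% with it. The share of all genes at an unadjusted p under 0.05 was not counted, and 2 members were under that value. These were Rsad2, which stood 0.72 ± 0.27 with its arrays above all marrow arrays (adjusted p = 0.637), and Isg15, which stood -0.79 ± 0.30 with its arrays below them (adjusted p = 0.651). They were the only members without overlap in this comparison, 1 in each direction, against 4.46% of all genes wholly above and 5.27% wholly below.

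Between G-CSF and CWHM-823+tGro-b blood, 1 of 33 members passed, Tnfsf10, against 0.626% of all genes tested. With the block 4 passed, against 2.2% of all genes: Gbp3 was also higher after G-CSF (1.54 ± 0.43, adjusted p = 0.0203), and Rsad2 (-1.07 ± 0.27, adjusted p = 0.0235) and Ifi44 (-0.91 ± 0.36, adjusted p = 0.0276) were lower. The Tnfsf10 call did not pass without G-CSF array 1 or 3 or CWHM-823+tGro-b array 2 or 3 (adjusted p = 0.0637 to 0.0783). Between CWHM-823+tGro-b and AMD3100 blood limma called 0 of 33, against 0.147% of all genes. With the block Tnfsf10 passed, against 16.9% of all genes. Without it 3 members had an unadjusted p under 0.05, and the share of all genes at that level was not counted.

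The interferon pathway was followed in 73 further genes, of which 64 could be tested. Not all were upstream of the members, since 30 were other interferon targets and 6 were partners of Tnfsf10. Between G-CSF and AMD3100, 20 were higher and 5 lower after G-CSF, against 12.6% higher and 18.4% lower of all genes tested. With the slide as a block 28 were higher and 10 lower, against 23.1% and 39.6% of all genes. Without the block, 10 of the higher genes were other targets and 2 were partners of Tnfsf10. The median difference of the 64 genes was 0.45, against -0.37 for all genes. By list, the median was -0.93 for ligands and -0.28 for sensing genes. For the remaining lists it ran from 0.37 for factors to 0.84 for inhibitors. The 4 with the smallest p were Myd88, the adaptor of most Toll-like receptors, Tnfrsf10b, Socs3, an inhibitor of STAT3 signalling, and H2-D1, an MHC class I heavy chain. Socs3 differed by 1.94 ± 0.32 (adjusted p = 0.00564) and H2-D1 by 1.26 ± 0.22 (adjusted p = 0.00718). Myd88 was above background on 3 G-CSF and 0 AMD3100 arrays, so it was at least 3.93-fold higher after G-CSF (adjusted p = 0.00402), taking each AMD3100 array at the lowest signal above background.

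The 5 pathway genes that were lower after G-CSF than after AMD3100 were all named after their values were seen. Ifna2 (-1.46 ± 0.32, adjusted p = 0.0121) and Ifna1 (-0.93 ± 0.22, adjusted p = 0.0145) are type I interferons of a family of near-identical genes that probes may not tell apart. The levels of Ifna2 were -3.37, -1.99 and -2.34 after G-CSF, -1.12, -1.02 and -1.17 after AMD3100, -2.29, -2.41 and -2.06 after CWHM-823+tGro-b, and -2.10, -2.45 and -2.01 in marrow, with the AMD3100 arrays above all others. Tlr9 (-1.02 ± 0.23, adjusted p = 0.0136) senses DNA, Irf8 (-1.14 ± 0.28, adjusted p = 0.0159) specifies monocytes and dendritic cells, and Gbp5 (-1.05 ± 0.27, adjusted p = 0.0198) is a guanylate-binding protein.

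The interferon receptors did not pass in any comparison. Between G-CSF and AMD3100 the type I receptor chains Ifnar1 and Ifnar2 stood 0.36 ± 0.39 and 0.57 ± 0.34, and the gamma receptor chains Ifngr1 and Ifngr2 stood 0.22 ± 0.25 and 0.85 ± 0.38. With the block Ifnar2 (adjusted p = 0.0177) and Ifngr2 (adjusted p = 0.0109) passed there.

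Against marrow, 3 pathway genes were higher and 0 lower after G-CSF: Socs3 (4.42 ± 0.32, adjusted p = 3.29e-05), Myd88 (1.97 ± 0.34, adjusted p = 0.0109; 2 of 3 marrow arrays above background) and Ifitm2, a membrane protein that blocks viral entry (1.17 ± 0.25, adjusted p = 0.0414), against 1.18% higher of all genes. With the block 11 were higher and 2 lower, against 8.24% and 11.3% of all genes. After AMD3100 only Socs3 passed without the block (2.48 ± 0.32, adjusted p = 0.00439), against 0.513% higher of all genes. With it 6 were higher and 8 lower, against 5.84% and 7.7% of all genes. After CWHM-823+tGro-b again only Socs3 passed (3.06 ± 0.32, adjusted p = 0.000517), against 0.34% higher of all genes. With the block 1 was higher and 1 lower there, against 0.769% and 0.311%. Between G-CSF and CWHM-823+tGro-b only Myd88 passed without the block (2.15 ± 0.34, adjusted p = 0.0117), against 0.37% higher of all genes. It was above background on 2 of 3 CWHM-823+tGro-b arrays. With the block 3 pathway genes were higher after G-CSF and 0 lower, against 1.12% and 1.08%. Between CWHM-823+tGro-b and AMD3100, 0 of 64 passed, against 0.147% of all genes in either direction. With the block 8 were higher and 3 lower, against 8.43% of all genes in each direction.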

How the data were processed

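RNA from LSK cells was amplified, labelled with Cy5 and hybridised to 1-colour Agilent mouse arrays, per the labels' protocols. The deposited scanner output holds processed signal intensity values that the authors made with Agilent Feature Extraction 11.5.1.1; per the file headers, background was subtracted and the array detrended, without scaling between arrays. A deposited table of 30354 probes gives linear intensity after normalization by the authors, with array medians of 938 to 945; its method is not given in the sources used here.

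Here outlier spots were left out, replicate spots averaged, and log2 values expressed over each array's 75th percentile. A probe was kept where every array of some group had it above background (29495 of 39429 probes), and each of 23793 genes was represented by its brightest probe. Gene names came from the arrays, updated through 28330 matched accessions (GRCm38.p6). Probe positions are those of the arrays in mm9, without exon annotation.

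The model was fitted with limma 3.58.1 (R 4.3.3, package data.table, version 1.17.8), with 1 mean per group over all 12 arrays, and tested on simulated data. Tests were 2-sided. Same-numbered arrays lay on 1 slide, and after group means were removed the 18 same-numbered pairs correlated at 0.26 to 0.62, so values with the slide as a block are given beside members' calls and pathway counts that it changed. The alternatives were quantile normalization, normexp (offset 50), the authors' values, other filters, the slide block, an intensity trend, the mean of a gene's probes, each probe alone (added after the data were seen) and leaving out each array. All 36 members are named. Values on every array are given for members that passed with or without the block, and for those with the largest spread. Pathway genes named by rule were the receptors and, per comparison, at most 4 with the smallest p; the partners of Tnfsf10, the 5 lower pathway genes and those under the closing observations were named after their values were seen. Members, classes and lists were chosen with earlier results of these data known.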

Additional observations from a re-analysis of the deposited data

Results flagged for a closer look

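Groups had 3 arrays, so no array was tested as an outlier within its group. The following members differed between mobilizing treatments in the size of their difference from marrow, which for a shared marrow group is the same test as the difference between the treatments (limma, adjusted over all genes). Between G-CSF and AMD3100 these were Tnfsf10 (2.15, adjusted p = 0.000788), Parp14 (1.60, 0.0123), Gbp3 (1.58, 0.0222), Igtp (1.20, 0.0379), Ifi35 (1.00, 0.0314), Gbp2 (0.91, 0.0370) and Irf1 (0.78, 0.0273), all higher after G-CSF on 3 of 3 slides. Mx2 (-1.28, 0.0139) and Rsad2 (-1.28, 0.0108) were lower after G-CSF on 3 of 3 slides and Isg15 (-0.96, 0.0342) on 2 of 3. Between G-CSF and CWHM-823+tGro-b, Tnfsf10 differed by 1.42 (adjusted p = 0.0137), higher on 3 of 3 slides. Of these, the direction of Irf1 differs between its 2 probes, and the Isg15 probe shares sequence with a probe of another gene.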

How the results depend on the processing

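The slide block moved the number of members that passed to 8 for G-CSF against marrow (1 without it), 3 for AMD3100 against marrow (1), 22 for G-CSF against AMD3100 (10), 4 for G-CSF against CWHM-823+tGro-b (1) and 1 for CWHM-823+tGro-b against AMD3100 (0). It changed no call for CWHM-823+tGro-b against marrow. Quantile normalization with the replicate block gave 5, 3, 20, 3 and 2 in the same order. For G-CSF against marrow, 2 members passed with normexp, with only probes above background on all arrays and with an intensity trend, and 0 with the authors' table. For AMD3100 against marrow, 0 passed with normexp and with no filter on dim probes. Leaving out each array in turn gave 0 to 2 members for G-CSF against marrow, 0 to 0 for AMD3100 against marrow, 2 to 15 for G-CSF against AMD3100 and 0 to 1 for G-CSF against CWHM-823+tGro-b. The type I minus gamma-type difference between G-CSF and AMD3100 (-0.97) was -0.76 without Psmb8 and Psmb9, -0.66 under quantile normalization with or without the block, -0.80 with normexp, -0.67 in the authors' table, -0.73 with no filter, -0.51 with the mean of a gene's probes and -1.05 to -0.70 leaving out each array. Between CWHM-823+tGro-b and AMD3100 (-0.10) it was 0.11 without Psmb8 and Psmb9, 0.0884 with normexp, 0.0092 with no filter, -0.20 with only probes above background on all arrays and -0.27 to 0.0306 leaving out each array. Sp110 between G-CSF and AMD3100 (-0.59) reversed to 0.20 under quantile normalization, with or without the block, and in the authors' table (0.20). In that comparison the all-gene split of 3008 higher and 4382 lower became 3321 and 2603 under quantile normalization. Over all genes, the alternatives gave 186 to 4646 calls for G-CSF against marrow (413), 66 to 4313 for AMD3100 against marrow (338), 53 to 266 for CWHM-823+tGro-b against marrow (88), 1470 to 14904 for G-CSF against AMD3100 (7390), 71 to 523 for G-CSF against CWHM-823+tGro-b (149) and 5 to 4425 for CWHM-823+tGro-b against AMD3100 (35). The cause of these changes was not tested. Precision is limited by the small number of arrays, and dim members (Ifit1, Stat2) have little signal over background.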

Other observations

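A set of 6 genes of MHC class I presentation outside the 36 members was picked after their values were seen. Of these, 3 were higher after G-CSF than after AMD3100 and 3 did not pass, against 12.6% higher among all genes. The heavy chain H2-D1, given above, was also higher there and is not counted among the 6. Psmb10, the remaining inducible proteasome subunit, differed by 1.51 ± 0.34 (limma, adjusted p = 0.0133), the proteasome activator Psme1 by 0.83 ± 0.24 (0.0281) and the loading chaperone Tapbp by 0.83 ± 0.29 (0.0477). The heavy chain H2-K1 (0.46 ± 0.29, 0.207), the light chain B2m (0.15 ± 0.26, 0.652) and the transporter Tap2 (0.14 ± 0.23, 0.617) did not pass. Against marrow after G-CSF, none of these 6 passed, with adjusted p of 0.238 for Psme1 to 0.664 for B2m; with the slide as a block Psmb10 and Psme1 passed there.

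The 3 neighbouring Ifitm genes, also picked after their values were seen, encode membrane proteins that restrict viral entry and are known to mark stem cells. They were all higher after G-CSF than after AMD3100: Ifitm1 by 1.08 ± 0.31 (adjusted p = 0.0272), Ifitm2 by 1.24 ± 0.25 (0.0102) and Ifitm3 by 1.13 ± 0.23 (0.00998). Of all genes tested, 12.6% were higher in that comparison. Against marrow, Ifitm1 stood 0.77 ± 0.31 and Ifitm3 0.90 ± 0.23 after G-CSF and did not pass without the slide block. The kinases Jak1 and Jak2 and the factor Stat3 were also higher after G-CSF than after AMD3100 (0.79, 0.75 and 0.85, adjusted p = 0.0257, 0.0235 and 0.0348).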
